A study of Mus musculus with 6 samples.

Results

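Cytokines of the oncostatin M and interleukin-6 family signal through receptors that share the chain gp130, encoded by Il6st, and this report follows 10 genes of that system in blood stem cells of young and old mice. The 10 genes were taken by symbol from the deposited count table, which lists 24091 genes: the receptor chains Osmr, Il6st, Lifr, Il6ra, Il11ra1 and Il27ra, the cytokine subunits Ebi3 and Il12a, the transcription factor Stat3 and the feedback inhibitor Socs3. All 10 had enough counts to enter the test, as did 13413 genes in all. The members were selected on their levels in these same libraries, with the aged to young differences of Osmr and Ebi3 already known, so the fold changes of that pair are descriptions and carry no p-value.

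The libraries were made from hematopoietic stem cells of wild-type mice, isolated by flow sorting for Sca-1, c-Kit and CD150 and against lineage markers and CD48. The aged group holds libraries 1, 2 and 3, from animals 20 months old, and the young group holds libraries 4, 5 and 6, from animals 2 months old. The samples were pools, from 4 aged and 30 young mice. It is not stated if that is per sample or per group. P-values here reflect how much pools varied, and some of that variation may be technical. The labels give no treatment or engineered allele for either age, and the series' title sets the comparison within work on miR-126 and vessels of the ageing marrow.

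A receptor of this family is assembled from gp130 and a second chain that decides which cytokine is bound. OSMR with gp130 receives oncostatin M, LIFR with gp130 receives leukemia inhibitory factor, and the alpha chains for interleukin-6 and interleukin-11 present their cytokine to gp130. Janus kinases attached to these chains phosphorylate STAT3, which enters the nucleus, and SOCS3, itself induced by STAT3, binds gp130 and shuts the signal off. EBI3 is a soluble chain related to cytokine receptors: paired with the IL-27 p28 subunit it forms IL-27, whose receptor is IL-27RA with gp130, and paired with the product of Il12a it forms IL-35.

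The promoters of Osmr and Ebi3, the members that differed most clearly by age, and of Socs3, a gene with known STAT3 control, are shown because STAT3 is the factor at the end of this pathway. Each is the 250 bases before the transcription start in RefSeq, build GRCm38.p6, written 5′ to 3′ on the gene's own strand, with matches to the STAT site TTCNNNGAA (a palindrome, so both strands are covered) in capitals. The windows are chr15:6874314-6874563 on the minus strand for Osmr, chr17:55952373-55952622 on the plus strand for Ebi3 and chr11:117969367-117969616 on the minus strand for Socs3.
Osmr: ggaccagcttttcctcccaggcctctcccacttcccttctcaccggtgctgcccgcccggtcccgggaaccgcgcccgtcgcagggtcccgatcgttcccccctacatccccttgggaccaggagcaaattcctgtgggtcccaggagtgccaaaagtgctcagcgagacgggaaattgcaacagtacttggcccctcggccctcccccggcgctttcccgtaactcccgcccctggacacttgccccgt
Ebi3: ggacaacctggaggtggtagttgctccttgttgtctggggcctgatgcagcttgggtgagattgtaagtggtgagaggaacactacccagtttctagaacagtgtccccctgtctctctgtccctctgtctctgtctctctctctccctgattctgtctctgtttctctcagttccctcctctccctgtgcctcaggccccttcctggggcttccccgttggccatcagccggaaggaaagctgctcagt
Socs3: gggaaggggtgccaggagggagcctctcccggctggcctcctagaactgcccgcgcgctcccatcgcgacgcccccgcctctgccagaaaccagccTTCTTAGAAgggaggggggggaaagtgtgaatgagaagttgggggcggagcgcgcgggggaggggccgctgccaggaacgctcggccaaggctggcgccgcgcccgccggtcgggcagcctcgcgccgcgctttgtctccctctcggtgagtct
Socs3 had 1 match, between 154 and 146 bases before its start, and these letters were not found in the windows of Osmr and Ebi3. A match was present in 7.02% of 32851 promoter windows of this length. RefSeq windows were matched for 9 of the 10 members, and none of the windows of Il6st, Lifr, Il6ra, Il11ra1, Il12a and Stat3 held the letters either. An AP-1 site, TGANTCA, and a PU.1-type site, GAGGAAG, were searched on both strands as well and were present in 6.75% and 10.6% of all windows; the members held 1 match, GAGGAAG in the window of a second start of Il11ra1. A match is a description of the sequence and was not related to binding here.

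Depth ran from 16452829 to 21918658 counts per library. Levels are given as CPM, each library's counts scaled to a common total with TMM factors, and a count of 0 allows up to 3 counts, or 0.132 to 0.239 CPM. All 9 stem cell marker genes checked, among them Kit, Mecom, Procr and Hlf, were present, with summed levels of 2578 to 3194 CPM in aged and 1199 to 2235 CPM in young libraries. Of the genes sorted on, Kit averaged 976 ± 99.0 CPM in aged cells against 632 ± 282 CPM in young ones and Cd48 averaged 1.40 ± 1.04 and 10.8 ± 3.17 CPM (SD, n = 3 each), the latter lower in aged cells (adjusted p = 0.0345 by edgeR). Ly6a, which encodes Sca-1, was higher in aged cells, at 121 ± 50.8 against 39.9 ± 9.58 CPM (adjusted p = 0.0435 by edgeR). Among the 6 T cell markers, Cd8a had no count and Cd3e stayed under 0.35 CPM in each library, Lck ran from 15.8 to 23.2 CPM, and Cd4 was lower in aged cells (0.279 ± 0.119 against 3.09 ± 0.956 CPM, adjusted p = 0.0145 by edgeR). Their sums were 16.2 to 19.2 CPM in aged and 21.9 to 25.4 CPM in young libraries. The macrophage markers summed to 316 to 354 CPM in aged and 292 to 390 CPM in young libraries, mostly from Lyz2. Young 4 stood apart from young 5 and young 6, with Pearson's r across genes of 0.951 and 0.948 against 0.989 between the other two, and 4.06% of its counts came from Actb, against 0.555% to 1.36% elsewhere. Aged 2 had counts for 20918 genes, against 16084 to 17057 in the other libraries.

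Among the 10 members, Osmr was higher and Ebi3 was lower in aged cells by edgeR's quasi-likelihood test, and the other 8 did not pass an adjusted p of 0.05. Osmr and Ebi3 were chosen with these differences known, so their passing is a description only. Of all tested genes, 5.76% passed (4.26% higher, 1.50% lower in aged cells), and nothing is read from the members' count since this contrast served in choosing them. For 7 members the ranges of the age groups were separate, as they were for 36.6% of tested genes. Osmr, Il6st, Il11ra1, Il27ra and Stat3 lay above in aged cells (19.0% of tested genes did) and Ebi3 and Il12a lay below (17.6% of tested genes did). DESeq2 called 4 members (Stat3 and Il27ra besides), and edgeR called 3, Stat3 among them, when young 4 or both young 4 and aged 2 were left out. The median log2 fold change of the members was 0.85, beside 0.04 over all tested genes. In bulk RNA such as this, fewer cells with a transcript and less of it per cell cannot be told apart.

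**Figure D1:**
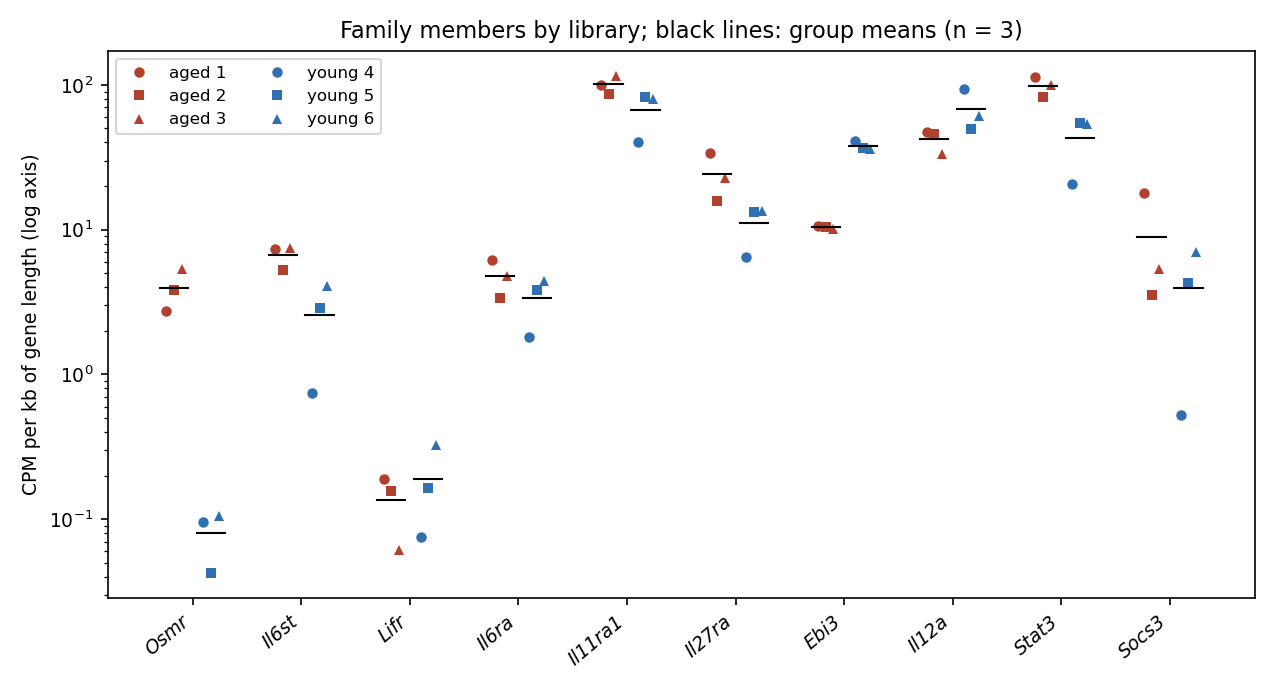
Level of each member in each library as CPM per kb of gene length (log axis), aged libraries in red and young in blue, with black lines at group means (n = 3). Osmr lies between 2.73 and 5.36 in aged and between 0.0426 and 0.105 in young libraries, and Ebi3 lies lower in aged cells with almost no spread. Young 4 is the lowest library for Il6st, Il6ra, Il11ra1, Il27ra, Stat3 and Socs3.

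Osmr encodes the chain that makes gp130 a receptor for oncostatin M (minus strand of chromosome 15, bases 6813577 to 6874313 of mm10). It stood at 16.0, 22.5 and 31.3 CPM in aged 1, aged 2 and aged 3, from 333, 436 and 675 counts. In young 4, young 5 and young 6 it stood at 0.557, 0.249 and 0.614 CPM, from 7, 5 and 14 counts. The lowest aged library was thus far above every young one, and the young libraries held a handful of reads each. The exact Poisson 95% intervals, which cover counting error only, ran from 0.0809 to 1.15 CPM over the young libraries, so their order among themselves was not resolved at this depth. The fitted difference was 48.9-fold, a log2 fold change of 5.61 ± 0.44 SE, and it ran from 5.28 to 5.90 with single libraries left out. Only 0.0895% of tested genes had a larger fitted change in either direction.

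Endothelial and stromal cells are known for strong OSMR expression, so their markers are given here. The 11 endothelial markers summed to 473 to 655 CPM in aged and 302 to 406 CPM in young libraries, without overlap. The sums came mostly from Vwf (168 ± 46.7 against 71.2 ± 17.5 CPM), Tek, Tie1, Pecam1 and Emcn. Of the 10 tested markers, 6 had a positive log2 fold change. Kdr, Vwf, Pecam1 and Cldn5, 4 of the tested markers, lay wholly above in aged cells (19.0% of tested genes did). Kdr stood at 17.3 ± 4.79 against 6.95 ± 2.62 CPM (adjusted p = 0.0782 by edgeR). Tek, Tie1 and Emcn overlapped between ages. Stab2, Plvap and Flt4 were scarce and overlapped between ages. Among the tested markers 1, Cldn5, passed (32.0 ± 20.0 against 3.94 ± 0.994 CPM, adjusted p = 0.0222 by edgeR). The defining marker Cdh5 ran from 0.0464 to 0.258 CPM in aged and from 0.159 to 1.27 CPM in young libraries. It had too few counts to be tested. The endothelial sum rested mostly on the genes named first and is no measure of endothelial cells as such. The 10 stromal markers summed to 15.9 to 28.9 CPM in aged libraries and to 9.38, 14.4 and 86.7 CPM in young 4, young 5 and young 6, so the overlap came from young 6 alone. Of these markers 1 passed the test, Cxcl12, which was lower in aged cells (0.856 ± 0.393 against 3.92 ± 1.61 CPM, adjusted p = 0.0486 by edgeR). Of the 5 tested stromal markers, 3 had a positive log2 fold change, as had 7064 of all 13413 tested genes. Pdgfrb lay wholly above in aged cells (4.8 ± 2.2 against 2.1 ± 0.61 CPM, adjusted p = 0.146 by edgeR). The other 5 stromal markers had too few counts to be tested. The part of such cells in the level of Osmr was not tested.

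None of the tested genes around Osmr passed. Rictor, a subunit of the mTORC2 kinase complex that lies 13177 bases away on the plus strand, had a level of 56.2 ± 0.896 CPM in aged cells and of 52.0 ± 0.542 CPM in young cells (SD, n = 3 each; edgeR's adjusted p = 0.619). Fyb, an adaptor gene of blood cells, stood at 245 ± 43.6 and 192 ± 19.3 CPM (adjusted p = 0.286 by edgeR). On the other side lies Lifr, 255259 bases away, which is a member itself. C9, Egflam and Gdnf, the other listed neighbours, had too few counts to be tested.

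Il6st encodes gp130, the chain that the family's receptors share (chromosome 13, 112464070 to 112506860, plus strand). It stood at 56.2, 40.5 and 57.9 CPM in the aged libraries and at 5.72, 22.3 and 31.3 CPM in young 4, young 5 and young 6. The groups did not overlap, and young 4 was far below the other young libraries. The log2 fold change was 1.37 ± 0.54 SE (adjusted p = 0.172 by edgeR), and it was 0.92 with an adjusted p of 0.0600 when young 4 was left out.

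Lifr encodes the chain for leukemia inhibitory factor, which also serves oncostatin M in some settings (chromosome 15, 7129572 to 7197489, plus strand). It was scarce throughout, at 2.01, 1.65 and 0.650 CPM in the aged and 0.795, 1.74 and 3.42 CPM in the young libraries. The groups overlapped, and the extremes were aged 3 and young 6. The log2 fold change was -0.50 ± 0.61 SE (adjusted p = 0.618 by edgeR) and turned to 0.15 without young 6. Young 6 also had the highest summed level of the 10 stromal markers, 86.7 CPM against 9.38 to 28.9 CPM in the other 5 libraries, with Col1a1 at 43.1 CPM. The part of these cells in the level of Lifr was not tested.

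The alpha chains for interleukin-6 and interleukin-11 differed less. Il6ra stood at 20.9, 11.4 and 16.2 CPM in aged and 6.12, 12.9 and 14.8 CPM in young libraries, which overlapped (0.51 ± 0.38 SE on the log2 scale, adjusted p = 0.415 by edgeR). Il11ra1 had the highest level per kb of the receptor chains. It stood at 196, 170 and 225 CPM in aged and 78.9, 160 and 156 CPM in young libraries. These groups did not overlap, but aged 2 lay close to young 5 and young 6, and the log2 fold change of 0.58 ± 0.29 SE did not pass (adjusted p = 0.253 by edgeR). The mouse genome holds near-identical copies of the interleukin-11 receptor alpha gene, so the reads assigned to Il11ra1 are uncertain.

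Il27ra encodes the specific chain of the IL-27 receptor (chromosome 8, 84030286 to 84042575, minus strand). It stood at 89.2, 42.0 and 60.1 CPM in aged and 17.1, 35.2 and 35.6 CPM in young libraries. The groups did not overlap, with aged 2 nearest to the young libraries. The log2 fold change was 1.12 ± 0.37 SE and did not pass by edgeR (adjusted p = 0.124), while DESeq2 gave an adjusted p of 0.0442.

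The balance between gp130 and its partner chains was read as ratios of CPM per kb within each library, which need no scaling between libraries. Osmr amounted to 0.374, 0.732 and 0.712 of Il6st in the aged libraries and to 0.128, 0.0147 and 0.0258 in young 4, young 5 and young 6. The ratio of Osmr to Il6st was therefore separated between ages although Il6st itself was higher in aged libraries. The ratio of Lifr to Il6st differed the other way, at 0.0571 to 0.102 in young and 0.00820 to 0.0299 in aged libraries. Lifr itself overlapped between ages, with 10 to 78 counts per library, whereas Il6st was higher in each aged library. The ratio of Osmr to Lifr lay between 14.3 and 86.8 in aged libraries and between 0.257 and 1.26 in young ones, so Osmr outweighed Lifr per length in each aged library and was below it in young 5 and young 6. In young 4, with 7 Osmr and 10 Lifr counts, the order was not resolved. Il6ra was 0.638 to 0.848 of Il6st in aged and 1.08 to 2.45 of it in young libraries, while the ratios of Il27ra to Il6st overlapped. These ratios rest on the same contrast as the choice of genes and were not tested.

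**Figure D2:**
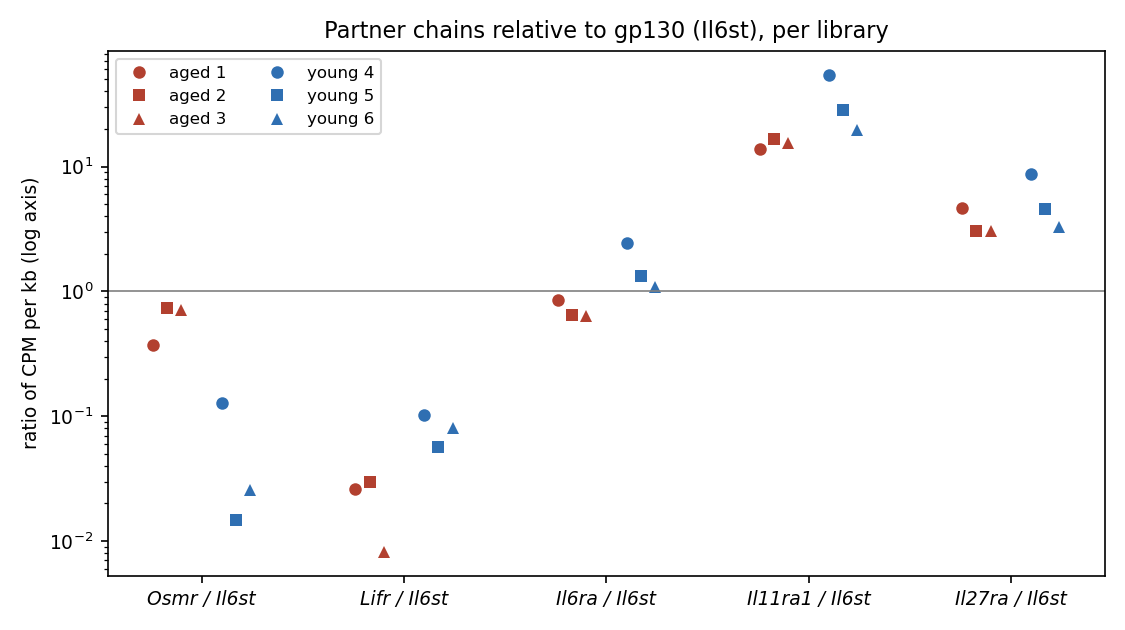
Ratio of CPM per kb of 5 partner chains to Il6st in each library (log axis; grey line at equal levels), aged in red and young in blue. The Osmr ratio is 0.374 to 0.732 in aged and 0.0147 to 0.128 in young libraries, the Lifr, Il6ra and Il11ra1 ratios are lower in every aged than in every young library, and the Il27ra ratios overlap.

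Ebi3, on the plus strand of chromosome 17 (bases 55952623 to 55957022), encodes the subunit common to IL-27 and IL-35. It stood at 12.4, 12.1 and 11.7 CPM in the aged libraries and at 47.9, 42.4 and 42.0 CPM in young 4, young 5 and young 6. The spread within each age was small beside the gap. Young 4, which was below the other libraries for Il6st, Il6ra, Il11ra1, Il27ra, Stat3 and Socs3, was close to young 5 and young 6 here. The fitted fall was 3.64-fold (log2 fold change -1.87 ± 0.16 SE), and it ran from -1.90 to -1.82 with single libraries left out.

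An antisense gene, Gm16712, shares 2252 bases of the interval of Ebi3, and because the libraries carry no strand information, reads of the pair cannot be told apart where they overlap. Gm16712 had 1.99 ± 0.510 CPM in aged cells against 4.81 ± 0.695 CPM in young cells (SD, n = 3 each; adjusted p = 0.0532 by edgeR). Ccdc94, 2165 bases beyond Ebi3, stood at 36.6 ± 0.432 and 46.5 ± 3.60 CPM (adjusted p = 0.198 by edgeR). The zinc finger genes Zfp119a, Zfp119b and Zfp959 on the other side did not pass either, with log2 fold changes of 0.49, -0.07 and -0.40, and Shd had too few counts to be tested. Zfp119a and Zfp119b are close relatives, so reads shared between them are uncertain. Dendritic cells and macrophages are known sources of Ebi3. The macrophage sums given above, mostly from Lyz2, overlapped between ages. Of the 9 tested macrophage markers none passed by edgeR. Only 1 had a positive log2 fold change, as had 7064 of all 13413 tested genes. The ranges of 4 of them, C1qb, C1qc, Mrc1 and Vcam1, lay below in aged cells (17.6% of tested genes did). The 8 dendritic markers summed to 25.1 to 33.9 CPM in aged and 8.03 to 20.1 CPM in young libraries. Of the dendritic markers 1, Clec9a, passed the test (16.4 ± 3.57 against 1.91 ± 0.323 CPM, adjusted p = 0.00397 by edgeR), while Itgax and Siglech stayed under 0.35 CPM in each library. The part of such cells in the level of Ebi3 was not tested.

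Il12a, which encodes the p35 subunit of IL-35 and IL-12 (chromosome 3, 68690644 to 68698550, plus strand), was well expressed in both groups. It stood at 64.8, 62.7 and 45.7 CPM in aged and 129, 67.5 and 83.4 CPM in young libraries. The aged libraries were all below the young ones, narrowly so for aged 1 and young 5, and young 4 was the highest. The log2 fold change was -0.69 ± 0.27 SE (adjusted p = 0.179 by edgeR), and -0.41 without young 4. Per kb, Ebi3 was 0.224 to 0.301 of Il12a in aged and 0.436 to 0.736 of it in young libraries.

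The difference of the other subunit that pairs with EBI3 had the opposite sign. Il27, the gene of the p28 subunit, stood at 8.15, 9.96 and 11.3 CPM in aged and 1.43, 3.54 and 4.38 CPM in young libraries, without overlap. Its log2 fold change of 1.63 ± 0.40 SE missed the threshold in the main fit (adjusted p = 0.0622 by edgeR). It passed without the filter on low counts (adjusted p = 0.0379 by edgeR). It also passed without young 4 (1.28, adjusted p = 0.0372 by edgeR) and with DESeq2 (adjusted p = 0.00302). The summed dendritic markers were higher in aged libraries as well, but mostly through the single gene Clec9a. Of the other tested dendritic markers, Zbtb46 lay above in aged cells (log2 fold change 0.59) and Fscn1 overlapped between ages (log2 fold change -0.27). Neither passed by edgeR (adjusted p = 0.209 and 0.753), and 5 dendritic markers had too few counts to be tested. The sum is therefore no measure of dendritic cells as such, and their part in the level of Il27 was not tested. Il12b and Il23a, the remaining subunits of this family, had too few counts to be tested. Among receptor chains for IL-12 and IL-35, Il12rb1 averaged 15.6 ± 6.12 CPM in aged cells against 4.17 ± 2.72 CPM in young cells (SD, n = 3 each; adjusted p = 0.102 by edgeR). It passed with DESeq2 (adjusted p = 0.0107) and after removing the trend by GC content and length (0.0465 by edgeR). Il12rb2 stood at 4.80 ± 1.59 and 11.8 ± 4.67 CPM (adjusted p = 0.0951 by edgeR), and it passed without young 4 (0.0404 by edgeR), after removing that trend (0.0482 by edgeR) and with DESeq2 (0.0157). Neither pair of groups overlapped, and the fold changes had opposite signs.

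**Figure D3:**
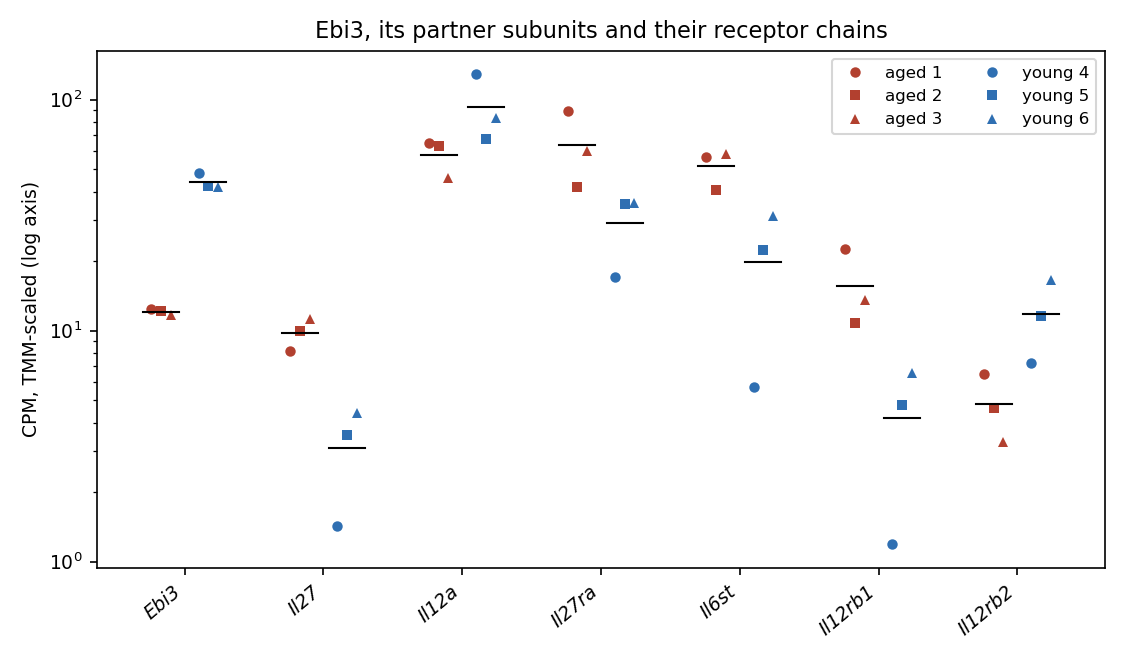
TMM-scaled CPM (log axis) of Ebi3, its partner subunits Il27 and Il12a and the receptor chains Il27ra, Il6st, Il12rb1 and Il12rb2 in each library, aged in red and young in blue, with black lines at group means (n = 3). Ebi3 lies between 11.7 and 12.4 in aged and 42.0 and 47.9 in young libraries, whereas Il27, Il27ra, Il6st and Il12rb1 lie higher in aged libraries.

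Stat3, the transcription factor that gp130 activates (chromosome 11, 100886806 to 100939540, minus strand), stood at 509, 369 and 449 CPM in aged and 92.3, 245 and 242 CPM in young libraries. No aged library reached down to a young one, and young 4 was the lowest of all. The log2 fold change was 1.20 ± 0.38 SE with an adjusted p of 0.109 by edgeR. Without young 4 it was smaller, 0.84, but the spread was smaller too and the adjusted p was 0.0343 by edgeR, and DESeq2 with all libraries gave 0.0259.

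Socs3, the feedback inhibitor that binds gp130 (chromosome 11, 117966087 to 117969366, minus strand), varied more within ages than any other member. It stood at 49.1, 9.60 and 14.5 CPM in aged and 1.43, 11.7 and 19.1 CPM in young libraries, and the groups overlapped. The log2 fold change of 1.17 ± 0.90 SE (adjusted p = 0.429 by edgeR) dropped to 0.15 without aged 1. Relative to Stat3 per kb, Socs3 lay between 0.0429 and 0.159 in aged libraries and between 0.0256 and 0.130 in young ones.

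Compared per kb of gene length, Il11ra1 and Stat3 led the members in aged cells, at 101 ± 14.4 and 98.4 ± 15.6 CPM per kb (SD, n = 3), and did not differ beyond their spread. Il12a (42.3 ± 7.69) and Il27ra (24.1 ± 9.01) followed, then Ebi3 (10.4 ± 0.289) and Socs3 (8.97 ± 7.92), which overlapped. Il6st (6.69 ± 1.25), Il6ra (4.79 ± 1.41) and Osmr (3.98 ± 1.32) followed. The place of Socs3 rested on aged 1, at 18.1 CPM per kb, against 3.53 and 5.32 in aged 2 and aged 3. In aged 2 and aged 3 Socs3 lay below Il6st and, narrowly, below Osmr. Il6st lay above Il6ra in each aged library, the order of Il6ra and Osmr varied, and Lifr was last at 0.137 ± 0.0671. In young cells Il12a (68.3 ± 23.3), Il11ra1 (67.6 ± 23.4), Stat3 (42.9 ± 19.4) and Ebi3 (37.8 ± 2.85) led. The spreads of Il12a, Il11ra1 and Stat3 overlapped, as did those of Stat3 and Ebi3. Within each young library, however, Ebi3 lay below Il12a and Stat3 lay below Il11ra1. Il27ra (11.1 ± 3.99) came next and lay above Socs3 (3.95 ± 3.26) in each young library. Il6ra (3.35 ± 1.36) was within the spread of Socs3, and Il6st (2.57 ± 1.69) lay below Il6ra in each young library. Lifr (0.189 ± 0.126) and Osmr (0.0809 ± 0.0335), not separated by their spread, closed the order.

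The other genes of the pathway were taken by role from lists of ligands, receptor chains, kinases and STATs, inhibitors and reported STAT3 targets. Of 63 such genes in the table, 54 were tested: 3 were higher in aged cells, none was lower and 51 did not pass by edgeR. That share is close to the 5.76% of all tested genes. Without adjustment, 14 genes higher and 4 genes lower in aged cells had p under 0.05, beside 1867 higher and 1494 lower of all 13413. DESeq2, with 62 of the genes in its fit, called 8 higher and 3 lower. Their median log2 fold change was 0.28, beside 0.04 over all tested genes. The count of 3 was 7 without young 4 (4 higher, 3 lower) and 4 without both young 4 and aged 2, but 1 without aged 1, aged 2 or young 5 and 0 without aged 3 or young 6.

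Of 9 ligand genes, 5 were tested and none passed by edgeR; 2 had an unadjusted p under 0.05, both higher in aged cells. DESeq2 called 2, Il27 and Clcf1, both higher, and limma-voom called 0. Il6, Il11 and Cntf were among those with too few counts. Osm, the ligand of the OSMR and gp130 pair, stood at 14.3, 6.97 and 8.08 CPM in aged and 3.98, 9.92 and 11.3 CPM in young libraries, which overlapped (0.21 ± 0.45 SE on the log2 scale, adjusted p = 0.780 by edgeR). Ctf1, which encodes cardiotrophin-1, stood at 8.77 ± 5.32 and 7.28 ± 1.01 CPM. Clcf1, a ligand related to ciliary neurotrophic factor, stood at 9.85 ± 1.89 and 4.99 ± 1.50 CPM (adjusted p = 0.107 by edgeR).

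Among the 4 tested further receptor chains, Csf3r, the G-CSF receptor and a structural relative of gp130, rose in aged cells. It stood at 79.0, 72.6 and 104 CPM in aged and 17.2, 30.6 and 35.3 CPM in young libraries, well apart (1.62 ± 0.29 SE on the log2 scale, adjusted p = 0.0321 by edgeR, higher in 3 of 3 aged libraries). Its call was lost when any 1 of aged 1, aged 2, aged 3, young 5 and young 6 was left out, where the adjusted p by edgeR ran from 0.0678 to 0.114. Lepr, the leptin receptor gene, was near the detection limit at 0.970 ± 0.325 and 0.433 ± 0.253 CPM (adjusted p = 0.238 by edgeR).

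Of the 10 Janus kinase and STAT genes other than Stat3, none passed by edgeR, 9 had a positive log2 fold change and the median was 0.51; 5 were higher at an unadjusted p under 0.05, as were 1867 of all 13413 tested genes, and DESeq2 and limma-voom called 0 each. Jak1, the kinase most tied to gp130, averaged 535 ± 43.6 CPM in aged cells against 364 ± 63.1 CPM in young cells (adjusted p = 0.143 by edgeR). Stat5a stood at 138 ± 32.1 and 122 ± 15.7 CPM.

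Of 17 inhibitor and phosphatase genes none passed by edgeR, with a median log2 fold change of 0.10 and 1 gene each way at an unadjusted p under 0.05. DESeq2 called 1, Socs1, and limma-voom called 0. Those with the highest CPM, Ptprc, Pias1 and Ptpn6, stood at 487 ± 75.8, 270 ± 64.0 and 287 ± 33.0 CPM in aged and at 444 ± 61.6, 340 ± 115 and 235 ± 54.7 CPM in young cells. Socs1, an inhibitor of Janus kinases named after its values were seen, stood at 44.4, 17.5 and 22.9 CPM in aged and 1.99, 9.67 and 10.6 CPM in young libraries (adjusted p = 0.116 by edgeR; DESeq2 0.0131).

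Of 21 reported STAT3 target genes tested, Bcl3 and Cebpd were higher in aged cells and none was lower by edgeR, with a median log2 fold change of 0.34. Of all tested genes 5.76% were called. Without adjustment, 5 higher and 2 lower target genes had p under 0.05, beside 1867 and 1494 of all 13413. DESeq2, with 22 of the targets in its fit, called 4 higher and 2 lower. Bcl3, an NF-kB cofactor gene, stood at 11.3, 6.55 and 9.89 CPM in aged and 0.636, 1.69 and 1.18 CPM in young libraries (2.94 ± 0.40 SE on the log2 scale, adjusted p = 0.0157 by edgeR). Its call was lost without aged 3 or young 6, with adjusted p-values of 0.0699 and 0.0718. Cebpd, a transcription factor gene of the acute phase response, stood at 7.19, 7.33 and 10.9 CPM in aged and 0.636, 2.09 and 2.19 CPM in young libraries (2.33 ± 0.45 SE on the log2 scale, adjusted p = 0.0365 by edgeR). Its call was lost when any 1 library other than young 4 was left out, with adjusted p-values of 0.0693 to 0.129. Each gene was higher in 3 of 3 aged libraries than in any young one.

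The targets with the highest CPM did not pass. Fos averaged 467 ± 170 CPM in aged cells against 1112 ± 777 CPM in young cells (adjusted p = 0.259 by edgeR; 0.0344 without young 4), Myc 456 ± 80.8 and 581 ± 18.1 CPM, and Junb 227 ± 111 and 178 ± 156 CPM. Among others named after their values were seen, Pim1, a kinase gene, stood at 84.1 ± 58.4 and 30.7 ± 3.38 CPM (adjusted p = 0.104 by edgeR), and its log2 fold change of 1.45 was 0.71 without aged 1. Ccl2, a chemokine gene, stood at 0.506 ± 0.315 and 2.04 ± 0.398 CPM, and Lrg1 at 0.912 ± 0.506 and 4.66 ± 3.68 CPM (adjusted p = 0.0685 and 0.0902 by edgeR). For Lrg1 the log2 fold change of -2.36 was -1.52 without young 6, and without young 4 it was -2.77 and passed (adjusted p = 0.0385 by edgeR). Lrg1 also passed after removing the trend by GC content and length. Pim1, Ccl2 and Lrg1 were called by DESeq2 (adjusted p = 0.0170, 0.0123 and 0.00686).

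**Figure D4:**
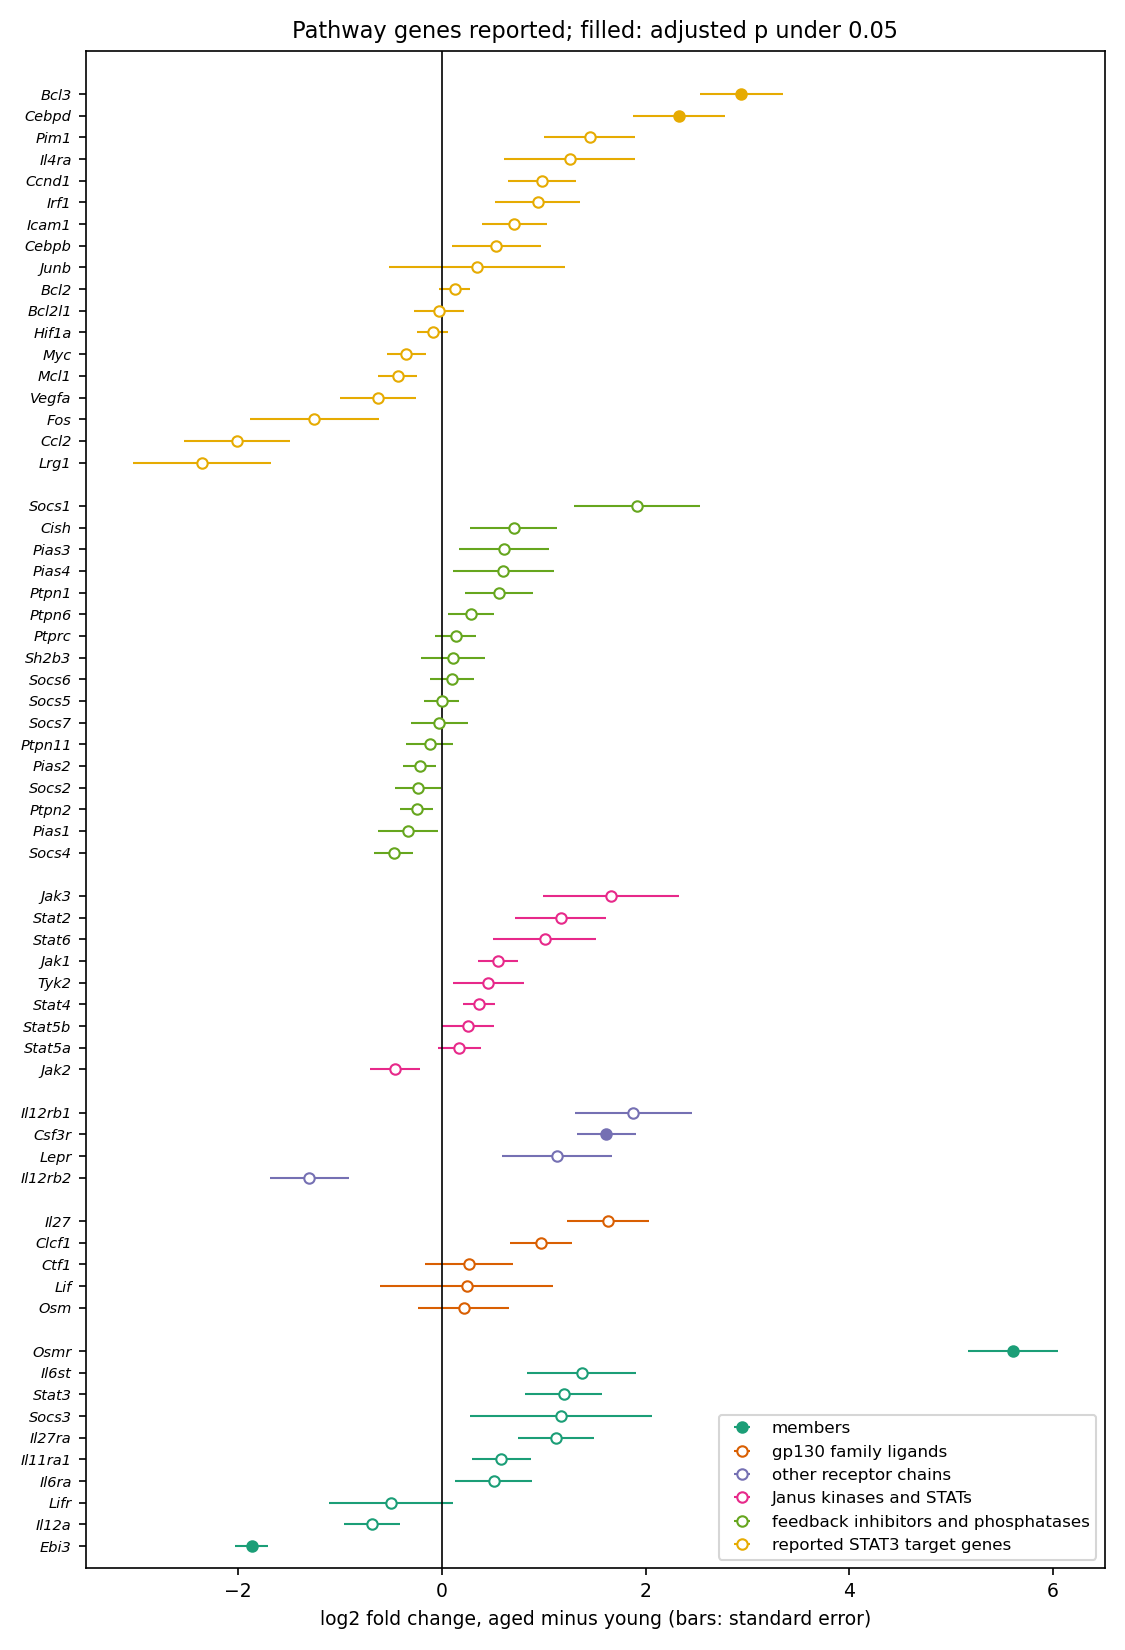
Log2 fold change, aged minus young, of the tested pathway genes reported here with their standard errors, coloured by role; filled points passed an adjusted p of 0.05. Osmr (5.61) and Ebi3 (-1.87) lie at the ends of the member group, and Csf3r, Bcl3 and Cebpd are the filled points outside it. The filled points of Osmr and Ebi3 are descriptions, since the pair was chosen with its differences known.

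The genes whose profiles over the 6 libraries were most like that of Osmr, by Pearson's r of log2 CPM among 10554 genes with a mean of at least 5 CPM, were Cpne8 (likeness 0.998), Fbxo44 (0.998) and Tm4sf1 (0.998). Cpne8, a copine gene, averaged 81.0 ± 17.0 CPM in aged cells against 13.4 ± 1.52 CPM in young cells, Fbxo44, an F-box gene, 15.5 ± 0.746 and 8.45 ± 0.587 CPM, and Tm4sf1, a membrane protein gene, 44.3 ± 8.94 and 2.72 ± 0.416 CPM. For Ebi3 they were Blmh (0.995), Ugt1a7c (0.994) and Rps4l (0.994), which stood at 133 ± 3.13 and 173 ± 2.09 CPM, 5.89 ± 0.521 and 13.9 ± 0.867 CPM, and 5.79 ± 0.738 and 20.2 ± 1.29 CPM in aged and young cells. The 6 libraries fall into 2 ages, and each of these genes had separate ranges in them. Rps4l closely resembles Rps4x, so its reads are uncertain.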

How the data were processed

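RNA of sorted mouse stem cells was measured in 6 libraries. Per the labels' protocols they were made with a SMART-Seq v4 kit, which does not mark strand, and read as single reads of 51 cycles. Trimmomatic, STAR 2.6.0, HTSeq 0.11.1, edgeR and mm10 are named, without roles, per the submitters' processing notes. The annotation is not given in the sources used here, nor is the counting mode. What the authors deposited was whole-number counts per gene, with no scaling, and a gene length in kb.

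Differences were tested with edgeR 4.0.16 (R 4.3.3): filterByExpr, TMM, glmQLFit and glmQLFTest over 3 aged and 3 young libraries, with Benjamini-Hochberg adjustment over 13413 genes, which held 99.92% of the counts, and a threshold of 0.05. Standard errors are the absolute log2 fold change divided by the square root of F. CPM are TMM-scaled, as mean ± SD over libraries; log2 CPM for likeness used a prior count of 2. CPM per kb divides by the deposited length. The fits were checked on simulated counts. Replicates differed by more than counting noise (the lowest chi-square of a pair was 10.65 per degree of freedom), so each library counted once.

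The members, lists and alternatives were chosen with earlier results of these data known. Named genes are the members, called genes of each list (at most 6), its 3 most abundant uncalled genes, the sort genes, 3 neighbours on each side and the 3 most alike genes of Osmr and Ebi3. Socs1, Pim1, Ccl2, Lrg1 and the other marker genes named in the text were added after their values were seen. Alternatives were median-ratio and upper-quartile scaling, dropping the filter, a minimum of 5 CPM in 3 libraries, limma-voom (limma 3.58.1), DESeq2 1.42.0, each library left out, and young 4 and aged 2 left out together. Removal of the trend by GC content (known for 98.02% of tested genes) and length, with splines of 4 degrees of freedom, was added after seeing the data. The values of 2 listed genes are not reported here. Promoters are RefSeq's, build GRCm38.p6.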

Additional observations from a re-analysis of the deposited data

How the results depend on the processing

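Osmr and Ebi3 were called in the same direction under all 14 alternatives. That describes the fits only, since the pair was chosen on these same libraries. The number of called members was 2 or 3 in each except DESeq2, which called 4 (3 higher, 1 lower). Other pathway genes called numbered 3, but 11 with DESeq2, 6 after removing the trend by GC content and length, and 0 (without aged 3 or young 6) to 7 (without young 4) with single libraries left out. Over all genes, 772 calls (73.96% higher) became 443 at 5 CPM or more (81.94% higher), 1893 with DESeq2 (58.58% higher), 1366 after removing that trend (50.22% higher) and 74 (without young 5) to 1029 (without young 4) with single libraries left out; 66.77% of calls were higher without young 4 and aged 2. Removing the GC and length trend moved the median log2 fold change of all genes by -0.11. Osmr, Ebi3 and the 8 uncalled members kept their direction. However, the shift of the median had the same sign as the fold changes of Ebi3, Lifr and Il12a. The log2 fold change of Ebi3 moved from -1.87 to -2.05 and that of Lifr from -0.50 to -0.62. That of Il12a became smaller, from -0.69 to -0.44. Among uncalled genes some signs turned. After that removal the log2 fold change was -0.0025 for Osm, -0.45 for Stat5a and -0.0552 for Ptpn6. With single libraries left out it ran from 0.15 to -0.87 for Lifr, -0.17 to 0.48 for Osm, -0.33 to 0.58 for Ctf1, -0.0422 to 0.25 for Stat5a and -0.22 to 1.14 for Junb. The cause was not tested. No paired analysis was possible because aged libraries are numbered 1 to 3 and young libraries 4 to 6. Depth limits Osmr in young cells and Lifr in both groups, which rest on few counts.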
